A study of Mus musculus with 12 samples.

Results

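Messenger RNA of 10 genes of the NF-kB system was followed in cancer cells sorted from mouse lung tumours with and without Lkb1 or Sik function. The genes were taken by symbol from a count table of 30743 genes: Nfkbia, Nfkbie and Tnfaip3, which restrain the pathway, Nfkb1, Nfkb2, Relb and Bcl3, which are NF-kB subunits or act on them in the nucleus, and Birc3, Icam1 and Tnf, which are targets of the pathway with other functions. All 10 had a row in the table, and all 10 had enough counts to be tested. The groups were tumours labelled KT;Lkb1f/f (Lkb1-deleted, 3 libraries), KT;H11LSL-Cas9_sgSik1 (sgSik1, 3 libraries), KT;H11LSL-Cas9_sgSik1-3 (sgSik1-3, 2 libraries) and KT (4 libraries). The genotype label joins the sgSik1 and sgSik1-3 libraries, and these 5 are called Sik-targeted below. All mice were of a mixed BL6/129 background, and all tumours carried the KT alleles. The labels do not expand KT. Lkb1f/f is a floxed Stk11 allele, and H11LSL-Cas9 is a Cas9 allele that Cre switches on, so that guides against Sik genes cut in the tumour cells. Cutting leaves a mixture of edited alleles, and the range covered by the name sgSik1-3 is not explained in the titles. The alternative names of those libraries hold Sik3x, where those of the sgSik1 libraries hold Sik1. Alternative names in the labels mention lentiviral Cre for KT replicates 2 to 4 and not for KT replicate 1. The labels state no age. Nothing in the titles or genotype labels says that libraries of a group came from separate mice, so the spread behind each p-value is that of libraries and could be technical.

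NF-kB dimers are held in the cytoplasm by IkB proteins until receptors such as those for TNF and interleukin 1 activate the IkB kinase, after which the IkB protein is destroyed and the dimers enter the nucleus. Among the genes they then switch on are their own inhibitors, above all Nfkbia, which encodes IkB alpha, and Tnfaip3, which encodes the ubiquitin-editing enzyme A20, so that a signal ends itself. In lung epithelium the pathway drives cytokines and adhesion molecules in inflammation. Lkb1, encoded by Stk11, activates the salt-inducible kinases, which in macrophages are known to hold back CREB coactivators and to shape the balance of inflammatory cytokines.

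The start regions of the members show which of them carry letters of the classical NF-kB recognition site. RefSeq windows of 300 bases (250 before to 50 after the transcription start, build GRCm38.p6) were found for 8 of the 10 members, in 11 windows. The first motif searched was GGGNNNTTCC, present on either strand in 5.56% of 32851 windows of the same length, and the other was the general kappa B decamer consensus, present in 8.46%. The motifs overlap each other and many matches meet both. Of the 8 members, 5 held at least 1 match to one of them (Nfkbia, Tnfaip3, Nfkb2, Nfkbie and Bcl3) and Birc3, Icam1 and Tnf held none in their windows. This count is per gene, over either motif and all windows of the gene. The shares above are per window and per motif, so they are not a like background for it. The cAMP response element TGACGTCA, found in 1.79% of all windows, was in no member's window. The shorter TGACG, found in 20.8%, was in windows of Tnfaip3 and Nfkb2, and the AP-1 heptamer, found in 5.2%, was in windows of Tnfaip3 and Nfkbie. The windows below belong to the members on which the comparisons turn, Nfkbia, Tnfaip3, Bcl3 and Tnf, and to Nfkb2 as a subunit gene that holds the motif and did not pass a test. They are printed 5′ to 3′ on the gene's own strand, with matches to either kappa B motif in capitals, from chr12:55492598-55492897 (minus strand) for Nfkbia, chr10:19015361-19015660 (minus strand) for Tnfaip3, chr19:46304487-46304786 (plus strand) for Nfkb2, chr7:19822706-19823005 (minus strand) for Bcl3 and chr17:35201958-35202257 (minus strand) for Tnf.
Nfkbia: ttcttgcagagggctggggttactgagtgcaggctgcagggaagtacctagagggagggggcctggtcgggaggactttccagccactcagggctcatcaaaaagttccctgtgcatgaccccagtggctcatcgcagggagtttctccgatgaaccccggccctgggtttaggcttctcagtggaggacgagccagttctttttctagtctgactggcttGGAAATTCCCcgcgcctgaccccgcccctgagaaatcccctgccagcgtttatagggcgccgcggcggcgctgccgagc
Tnfaip3: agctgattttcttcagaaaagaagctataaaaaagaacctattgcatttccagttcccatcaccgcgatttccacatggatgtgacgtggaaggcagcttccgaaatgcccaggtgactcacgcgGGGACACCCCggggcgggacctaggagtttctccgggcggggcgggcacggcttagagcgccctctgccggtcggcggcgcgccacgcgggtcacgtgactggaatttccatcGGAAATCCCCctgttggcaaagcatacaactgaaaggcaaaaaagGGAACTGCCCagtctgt
Nfkb2: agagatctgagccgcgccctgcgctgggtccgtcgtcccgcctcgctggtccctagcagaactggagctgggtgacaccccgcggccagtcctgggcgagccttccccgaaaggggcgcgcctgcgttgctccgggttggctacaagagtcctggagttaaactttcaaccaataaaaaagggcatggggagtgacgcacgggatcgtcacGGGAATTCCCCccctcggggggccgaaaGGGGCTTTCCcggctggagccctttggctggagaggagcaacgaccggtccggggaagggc
Bcl3: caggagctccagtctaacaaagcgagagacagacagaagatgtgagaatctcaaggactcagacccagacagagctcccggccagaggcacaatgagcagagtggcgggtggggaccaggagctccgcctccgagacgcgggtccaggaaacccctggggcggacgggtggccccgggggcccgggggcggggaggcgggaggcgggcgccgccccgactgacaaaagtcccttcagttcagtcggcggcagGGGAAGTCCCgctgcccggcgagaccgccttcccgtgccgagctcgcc
Tnf: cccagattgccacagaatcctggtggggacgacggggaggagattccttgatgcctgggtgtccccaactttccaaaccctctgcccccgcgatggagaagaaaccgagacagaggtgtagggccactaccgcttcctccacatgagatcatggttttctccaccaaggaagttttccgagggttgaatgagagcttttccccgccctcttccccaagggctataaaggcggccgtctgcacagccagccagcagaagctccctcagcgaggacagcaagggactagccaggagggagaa

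The single capitalised run of Nfkbia spans bases 222 to 231 of its window. Tnfaip3 held 3 capitalised runs, at bases 126 to 135, 239 to 248 and 284 to 293. Nfkb2 held runs at bases 212 to 222 and 240 to 249, and Bcl3 held 1 run at bases 253 to 262, just after the start. A match describes these letters only and does not show that a factor binds there.

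The 12 libraries held 3847760 to 13955181 counts. The 4 most abundant transcripts took 74.2% of sgSik1 replicate 1 and 18.4% of KT replicate 1, so effective library sizes after TMM scaling (edgeR's trimmed mean of M values) ran between 3518450 (sgSik1 replicate 1) and 18320800 (sgSik1 replicate 3), and 3 counts correspond to 0.164 to 0.853 CPM (counts scaled to a common effective library size). KT replicates 2 and 3 stood apart: 23582 and 23747 genes had a count there, and 14283 to 16533 in each of the other 10. Results that rest on these 2 are given with and without them. Epcam was at 118 to 388 CPM in every library, and 8 epithelial and alveolar type II markers summed to 13500 to 27800 CPM in Lkb1-deleted, 9700 to 33600 CPM in Sik-targeted and 13500 to 63900 CPM in KT libraries. The sum covers markers that moved in opposite directions. Of the 8, 2 rose and 2 fell with Sik targeting, where 12.4% of all genes passed. Sftpc was at 537, 19300 and 18700 CPM in Lkb1-deleted, 402 to 4390 CPM in Sik-targeted and 7730 to 55500 CPM in KT libraries. Lamp3 was at 29.3 to 351 CPM in Sik-targeted and 693 to 1480 CPM in KT libraries, and Krt8 at 174 to 896 and 97.5 to 143 CPM. Their part in the members' levels was not tested. Markers of other cell types also varied: 7 fibroblast and pericyte markers summed to 1.7 to 401 CPM in Lkb1-deleted, 13.9 to 39.8 CPM in Sik-targeted and 28.3 to 391 CPM in KT libraries, and 7 endothelial markers to 1.34 to 214 CPM in Lkb1-deleted, 17 to 42.5 CPM in Sik-targeted and 14.8 to 40.3 CPM in KT libraries. Of the 6 tested fibroblast and pericyte markers, 2 fell with Sik targeting (median log2 change -2.98), and their part in the members' levels was not tested. Stk11 was at 9.23 to 16.6 CPM in Lkb1-deleted libraries and 31 to 44.7 CPM in KT libraries. Sik3 was at 8.74 and 11.9 CPM in sgSik1-3, 21, 20.9 and 9.17 CPM in sgSik1 and 26.9 to 46.7 CPM in KT libraries, so that it was low in both sets of Sik-targeted libraries and their values overlapped. Sik1 was at 105 to 514 CPM in Sik-targeted, 149 to 214 CPM in Lkb1-deleted and 38.2 to 59.6 CPM in KT libraries. A transcript level does not check a guide, since cut alleles can still be transcribed. In such sorted bulk samples, a change in the share of a cell type and a change of RNA per cell cannot be told apart.

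Scaled to gene length (mean CPM per kilobase of exon over all 12 libraries), Icam1 was the highest of the 10 at 48.2, followed by Nfkbia at 29.0, Bcl3 at 15.2 and Tnfaip3 at 10.6. The ranges over the libraries of Icam1 and Nfkbia overlapped, as did those of Bcl3 and Tnfaip3, and without sgSik1 replicate 1 Bcl3 was at 9.01, below Tnfaip3 at 9.45. Tnf at 5.48 and Birc3 at 5.35 had ranges over the libraries that overlapped, as did Nfkb2 at 2.67 and Nfkb1 at 2.37, and Nfkbie at 1.61 and Relb at 1.41. Within KT libraries the order differed: Icam1 at 46.7 ± 7.12 and Nfkbia at 12.9 ± 2.03 CPM per kilobase were followed by Birc3 at 6.51 ± 1.05, Bcl3 at 5.48 ± 2.33 and Tnfaip3 at 3.86 ± 0.622, and Tnf was lowest at 0.696 ± 0.408 (SD, n = 4).

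**Figure D1:**
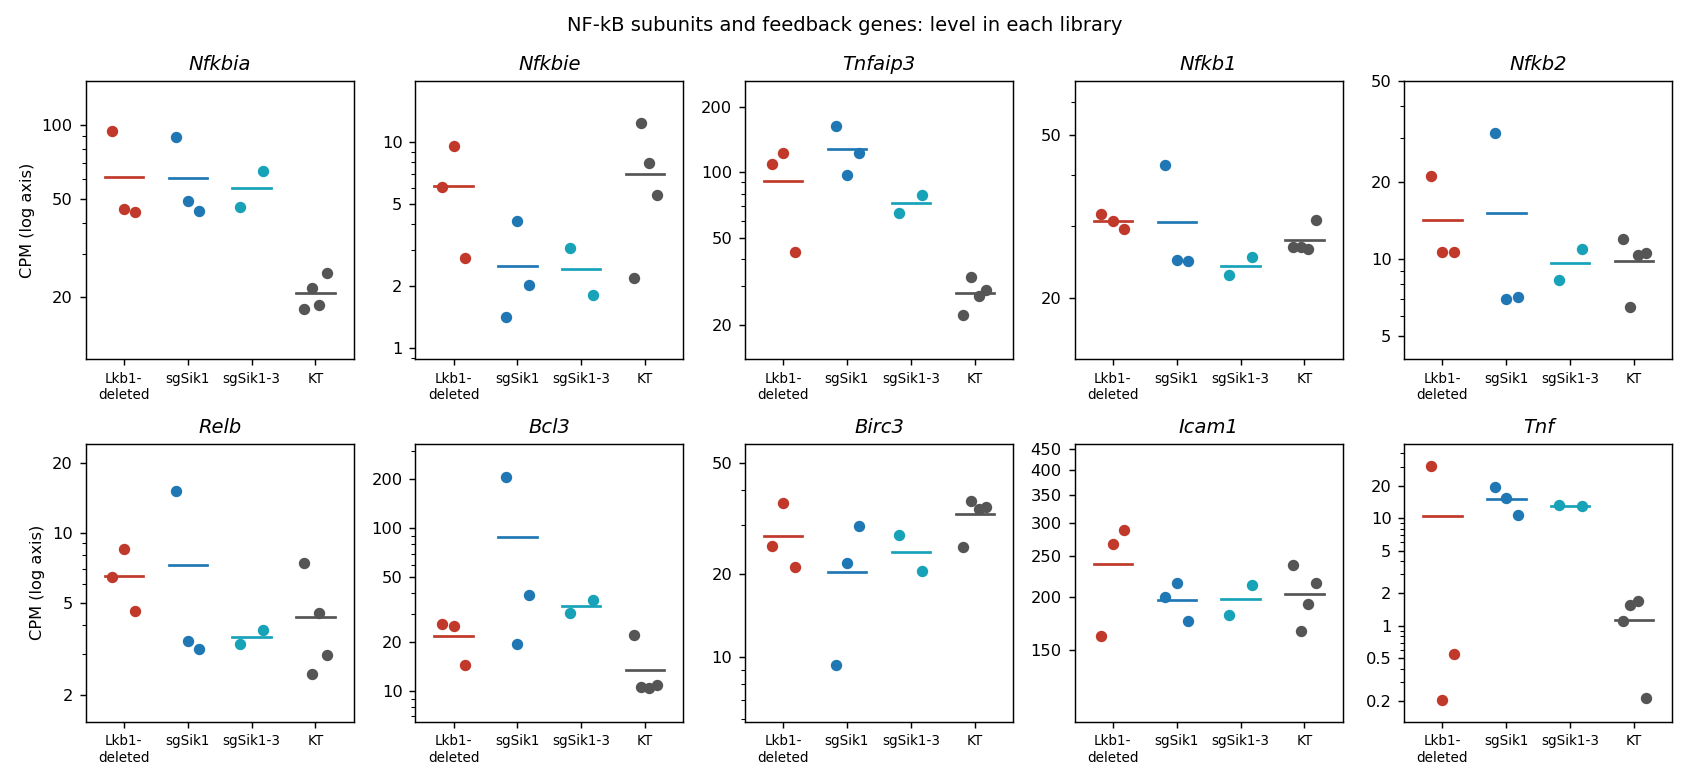
Level of each of the 10 genes in CPM on a log axis, 1 point a library and a line at the group mean, with Lkb1-deleted, sgSik1, sgSik1-3 and KT libraries from left to right. Every Lkb1-deleted and Sik-targeted library lies above every KT library for Nfkbia and Tnfaip3, whereas Tnf is above KT in all 5 Sik-targeted libraries and in 1 of 3 Lkb1-deleted libraries.

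The pathway's 2 main feedback inhibitors were the members that differed in both mutant genotypes. Nfkbia (chr12:55489410-55492647, GRCm38, minus strand, gene body) was at 94.0, 45.6 and 44.4 CPM in Lkb1-deleted libraries, at 89.0, 49.0 and 44.6 CPM in sgSik1 and 46.3 and 64.8 CPM in sgSik1-3 libraries, and at 17.9, 21.7, 18.5 and 25.0 CPM in KT libraries. The lowest mutant library was above the highest KT library. Nfkbia rose 2.95-fold with Lkb1 deletion (log2 change 1.56, SE 0.36, 95% interval 0.80 to 2.32, edgeR adjusted p = 0.0468) and 2.82-fold with Sik targeting (log2 change 1.5, SE 0.33, 95% interval 0.80 to 2.19, adjusted p = 0.011).

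Tnfaip3 (chr10:19000910-19015657, minus strand), whose product A20 takes apart the ubiquitin chains that carry the signal of the TNF receptor, was at 109, 123 and 43.3 CPM in Lkb1-deleted libraries, at 164, 97.1 and 123 CPM in sgSik1 and 65.4 and 79.1 CPM in sgSik1-3 libraries, and at 22.3, 33.2, 27.1 and 28.9 CPM in KT libraries. No mutant library overlapped KT. Tnfaip3 rose 3.29-fold with Lkb1 deletion (log2 change 1.72, SE 0.39, adjusted p = 0.0468) and 3.79-fold with Sik targeting (log2 change 1.92, SE 0.36, adjusted p = 0.00575).

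The third inhibitor, Nfkbie (chr17:45555703-45563169, plus strand), encodes IkB epsilon, a feedback IkB that follows IkB alpha in time. It was at 6.07, 9.57 and 2.75 CPM in Lkb1-deleted libraries, at 1.42, 4.13 and 2.02 CPM in sgSik1 and 3.07 and 1.81 CPM in sgSik1-3 libraries, and at 2.20, 12.4, 7.95 and 5.52 CPM in KT libraries. Its values ran opposite to those of Nfkbia in the Sik-targeted libraries, where 3 of KT's 4 libraries lay above all 5, but the groups overlapped through KT replicate 1. Neither comparison passed: the log2 change was -0.19 with Lkb1 deletion (SE 0.58, adjusted p = 0.929) and -1.49 with Sik targeting (SE 0.52, adjusted p = 0.0731). The second passed in 4 of 20 alternative settings (adjusted p 0.0371 to 0.721), among them without KT replicate 1 (log2 change -1.80) and without sgSik1 replicate 2 (log2 change -1.76), and was -0.63 without KT replicates 2 and 3.

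Over the whole set, 2 of 10 members passed in the comparison of Lkb1 deletion with KT, in which 1.16% of 13575 tested genes passed, and 4 of 10 passed in the comparison of Sik targeting with KT, in which 12.4% passed. All of these were higher in the mutant. Every Lkb1-deleted library was above every KT library for 2 of 10 members and for 6.38% of all genes, and every Sik-targeted library was above every KT library for 3 of 10 members and for 7.32% of all genes. The median log2 change of the members was 0.567 with Lkb1 deletion and 0.378 with Sik targeting, against -0.0404 and -0.0349 over all genes tested. Both comparisons use the same 4 KT libraries, so the values of one are not independent of the other.

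**Figure D2:**
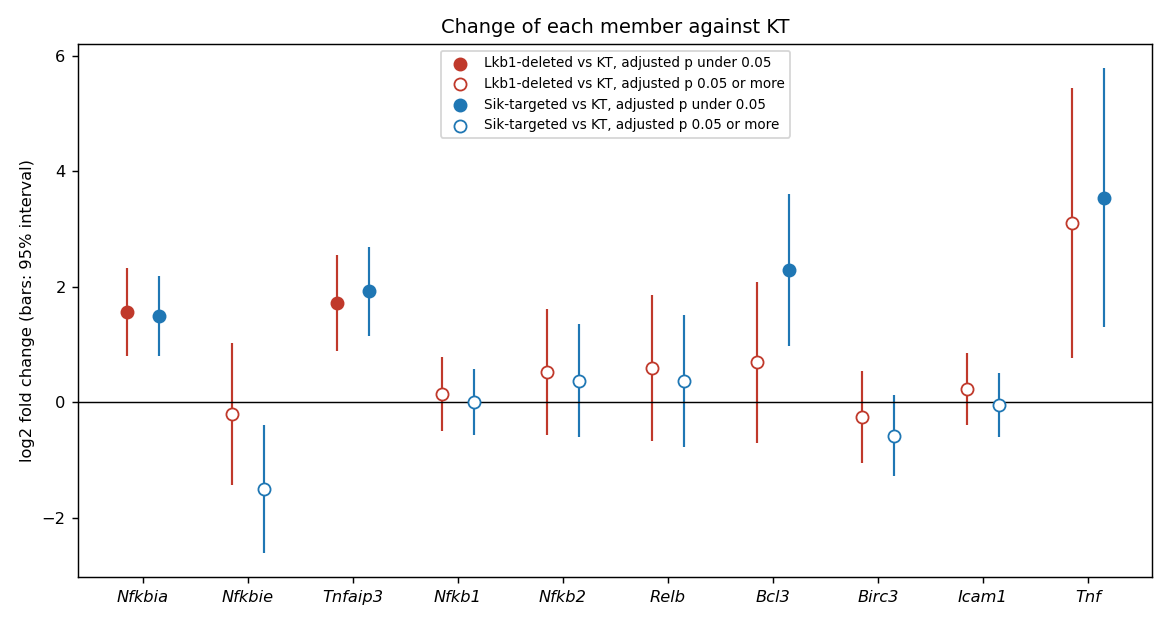
log2 fold change of each member in Lkb1-deleted (red, left) and Sik-targeted (blue, right) against KT libraries, with 95% intervals, filled where the edgeR adjusted p was under 0.05. Nfkbia and Tnfaip3 are filled in both comparisons with intervals that overlap, and Bcl3 and Tnf are filled for Sik targeting only, while the intervals of Nfkb1 and Icam1 are the narrowest and include 0.

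The calls for Lkb1 deletion lay close to the threshold. Leaving out 1 of the 12 libraries at a time, Nfkbia still passed in 1 of 12 fits (the fit without sgSik1 replicate 1; log2 change 1.13 to 1.76, adjusted p 0.021 to 0.214) and Tnfaip3 in 3 of 12 (those without Lkb1-deleted replicate 3, sgSik1 replicate 1 or sgSik1-3 replicate 1; log2 change 1.47 to 2.07, adjusted p 0.0247 to 0.173). For Sik targeting both passed in 12 of 12 fits, with adjusted p 0.00332 to 0.0443 for Nfkbia and 0.00232 to 0.0264 for Tnfaip3. Without KT replicates 2 and 3 together no member passed in either comparison: Nfkbia then had log2 changes of 1.54 with Lkb1 deletion (adjusted p = 0.45) and 1.43 with Sik targeting (adjusted p = 0.157), and Tnfaip3 of 1.86 with Lkb1 deletion (adjusted p = 0.415) and 2.02 with Sik targeting (adjusted p = 0.0933). The log2 changes of both genes moved by less than their SE when KT replicates 2 and 3 were left out, while the calls were lost.

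**Figure D3:**
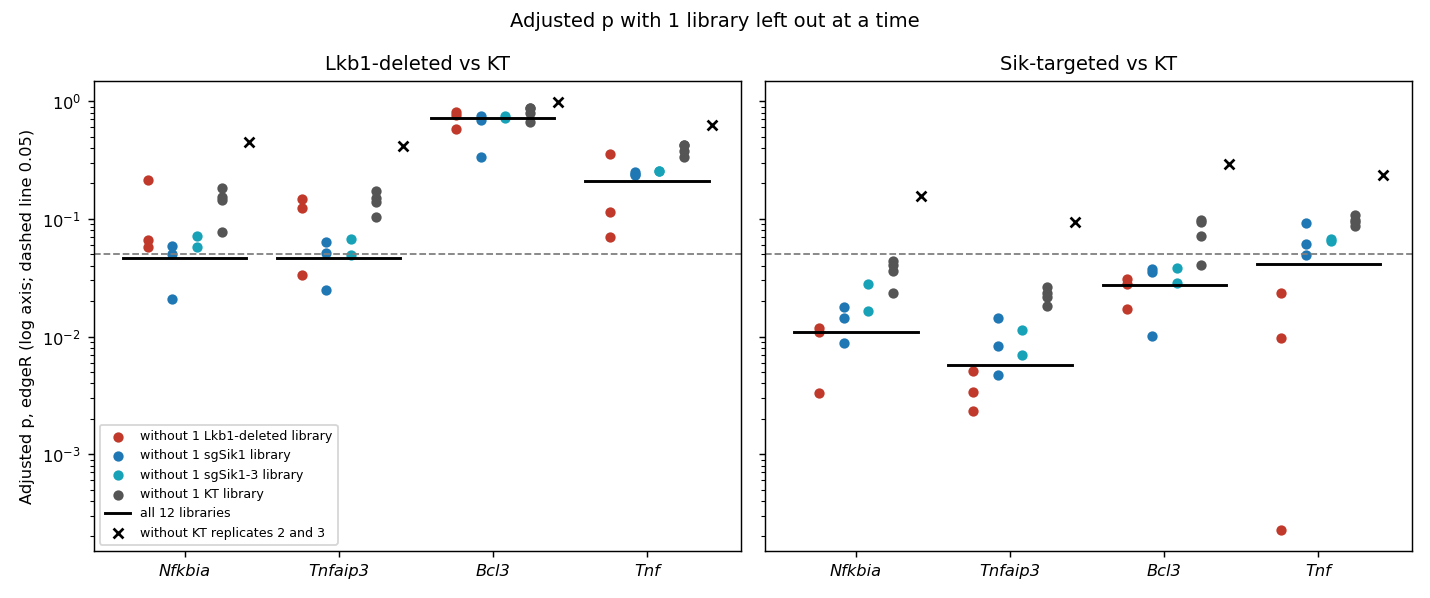
Adjusted p (log axis) of Nfkbia, Tnfaip3, Bcl3 and Tnf for Lkb1-deleted (left) and Sik-targeted (right) against KT libraries, with 1 point for each library left out, coloured by its group, a black line for all 12 libraries and a cross for the fit without KT replicates 2 and 3. For Sik targeting the points of Nfkbia and Tnfaip3 all lie under the dashed line at 0.05, between 0.00332 and 0.0443 and between 0.00232 and 0.0264, and the crosses lie above it.

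Many of the genes that respond to warm enzymatic digestion of tissue moved along with Nfkbia and Tnfaip3. The tumours were digested at 37 °C for 30 minutes per the labels. The summed level of 16 dissociation response genes (immediate-early genes such as Fos, Jun, Egr1 and Dusp1, and heat shock genes) was 13400 to 21800 CPM in Lkb1-deleted, 9530 to 28500 CPM in Sik-targeted and 2000 to 5680 CPM in KT libraries. Every Sik-targeted library was above every KT library for 7 of the 16 (and 7.32% of all genes), and every Lkb1-deleted library for 13 (and 6.38%). The heat shock genes Hspa1a, Hspa1b and Hsph1 overlapped KT in both mutant genotypes (Hspa1a at 191 to 964 CPM in Lkb1-deleted, 88.1 to 209 CPM in Sik-targeted and 101 to 208 CPM in KT libraries). Jun, Atf3, Ier2, Btg2, Klf4 and Klf6 overlapped KT in the Sik-targeted libraries only. Dnajb1 was at 329 to 437 CPM in Sik-targeted and 54.4 to 127 CPM in KT libraries. Of the 16, 7 passed with Lkb1 deletion and 8 with Sik targeting, all higher in the mutant, where 1.16% and 12.4% of all genes passed. The median log2 changes of the 16 were 2.11 and 1.81, against -0.0404 and -0.0349 over all genes tested. Split by title, 9 of the 16 passed in sgSik1 and 1 in sgSik1-3 tumours against KT, where 3.84% and 2.89% of all genes passed. Without KT replicates 2 and 3, 0 of them passed in any of these comparisons. Their part in the levels of Nfkbia and Tnfaip3 was not tested.

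The subunit genes Nfkb1, Nfkb2 and Relb did not pass in either comparison. Nfkb1 (chr3:135584655-135691547, minus strand), which encodes the precursor of the p50 subunit, was at 32.0, 30.9 and 29.4 CPM in Lkb1-deleted libraries, at 42.3, 24.8 and 24.6 CPM in sgSik1 and 22.7 and 25.2 CPM in sgSik1-3 libraries, and at 26.7, 26.7, 26.3 and 31.0 CPM in KT libraries. Its log2 change was 0.15 with Lkb1 deletion (95% interval -0.49 to 0.79) and 0.01 with Sik targeting (95% interval -0.56 to 0.58), so a change past 1 on the log2 scale in either direction lies outside both intervals.

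Nfkb2 (chr19:46304320-46312385, plus strand) encodes the precursor of the p52 subunit, and Relb (chr7:19606217-19629438, minus strand) its partner in the non-canonical branch of the pathway. Nfkb2 was at 21.3, 10.7 and 10.7 CPM in Lkb1-deleted libraries, at 31.3, 6.97 and 7.10 CPM in sgSik1 and 8.27 and 11 CPM in sgSik1-3 libraries, and at 12, 6.48, 10.4 and 10.6 CPM in KT libraries. Relb was at 6.44, 8.54 and 4.59 CPM in Lkb1-deleted libraries, at 15.1, 3.42 and 3.17 CPM in sgSik1 and 3.31 and 3.80 CPM in sgSik1-3 libraries, and at 7.40, 2.46, 4.5 and 2.97 CPM in KT libraries. For Nfkb1, Nfkb2 and Relb sgSik1 replicate 1 was the highest of the 12 libraries. The other Sik-targeted libraries overlapped KT for Nfkb2 and Relb and lay just below all KT libraries for Nfkb1. The log2 changes of Nfkb2 were 0.53 with Lkb1 deletion (SE 0.51, adjusted p = 0.727) and 0.38 with Sik targeting (SE 0.46, adjusted p = 0.636), and without sgSik1 replicate 1 the second was -0.24. Those of Relb were 0.60 with Lkb1 deletion (SE 0.60, adjusted p = 0.739) and 0.38 with Sik targeting (SE 0.54, adjusted p = 0.69), the second being -0.34 without that library. Exons of Nfkb2 overlap those of Psd and AC114539.1 on the opposite strand, and the sources used here do not give the strand setting of the counting, so reads of these genes may not be told apart.

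Bcl3 (chr7:19808462-19822770, minus strand), a nuclear member of the IkB family that binds p50 and p52 dimers and can activate transcription with them, was at 25.9, 25.3 and 14.5 CPM in Lkb1-deleted libraries, at 207, 19.6 and 39.0 CPM in sgSik1 and 30.2 and 36.4 CPM in sgSik1-3 libraries, and at 22.2, 10.6, 10.4 and 11 CPM in KT libraries. One sgSik1 library was far above the rest, and sgSik1 replicate 2 fell below KT replicate 1, so the groups overlapped. Bcl3 rose 4.9-fold with Sik targeting (log2 change 2.29, SE 0.62, adjusted p = 0.0274). Without sgSik1 replicate 1 the log2 change was 1.21 (SE 0.33, adjusted p = 0.0355), so that library sets the size of the change and not the call. The call was lost without KT replicate 2, 3 or 4 (adjusted p up to 0.0976) and without KT replicates 2 and 3 together (adjusted p = 0.292). With Lkb1 deletion the log2 change was 0.70 (SE 0.66, adjusted p = 0.721). The antisense gene Gm16175 overlaps its exons.

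The survival and adhesion genes did not pass. Birc3 (chr9:7848699-7873186, minus strand), which encodes an inhibitor of apoptosis that attaches ubiquitin in the TNF receptor complex, was at 25.1, 35.8 and 21.1 CPM in Lkb1-deleted libraries, at 9.38, 21.9 and 29.7 CPM in sgSik1 and 27.4 and 20.5 CPM in sgSik1-3 libraries, and at 24.9, 36.6, 34.1 and 34.8 CPM in KT libraries. KT replicate 1 lay within the range of the mutants and the other KT libraries at its upper end. Its log2 change was -0.25 with Lkb1 deletion (SE 0.38, adjusted p = 0.844) and -0.58 with Sik targeting (SE 0.33, adjusted p = 0.268). Icam1 (chr9:21015985-21028817, plus strand), an adhesion molecule that leukocyte integrins bind, was at 162, 268 and 289 CPM in Lkb1-deleted libraries, at 200, 216 and 176 CPM in sgSik1 and 181 and 214 CPM in sgSik1-3 libraries, and at 239, 166, 193 and 216 CPM in KT libraries. The groups overlapped throughout. Its log2 change was 0.23 with Lkb1 deletion (95% interval -0.40 to 0.86) and -0.05 with Sik targeting (95% interval -0.60 to 0.51). The antisense gene Gm47079 overlaps exons of Icam1.

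Tnf (chr17:35199381-35202007, minus strand), the cytokine that starts the pathway and is also its target, had the widest range of the 10 members on a log scale. It was at 30.7, 0.206 and 0.551 CPM in Lkb1-deleted libraries, at 19.6, 15.4 and 10.6 CPM in sgSik1 and 13.2 and 12.9 CPM in sgSik1-3 libraries, and at 1.10, 1.56, 1.69 and 0.212 CPM in KT libraries. The raw counts were 253, 2 and 3 in Lkb1-deleted libraries, 69, 108 and 194 in sgSik1, 56 and 71 in sgSik1-3, and 7, 21, 21 and 1 in KT libraries. All 5 Sik-targeted libraries were above all KT libraries, whereas Lkb1-deleted replicate 1 was the highest of all 12 and Lkb1-deleted replicates 2 and 3 were at or under 3 counts.

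Tnf rose 11.6-fold with Sik targeting (log2 change 3.54, SE 1.05, 95% interval 1.30 to 5.78, adjusted p = 0.0414). Leaving out 1 library at a time, the call held in 4 of 12 fits (log2 change 3.24 to 3.75, adjusted p 0.000229 to 0.108): those without any 1 Lkb1-deleted library and that without sgSik1 replicate 2. It was lost without any 1 KT library, without sgSik1 replicate 1 or 3 and without either sgSik1-3 library, and without KT replicates 2 and 3 together the log2 change was 4.33 (adjusted p = 0.238). With Lkb1 deletion the log2 change was 3.11 (SE 1.09, adjusted p = 0.209), and it was -1.75 without Lkb1-deleted replicate 1 (adjusted p = 0.355; 2.27e-06 to 0.877 over all alternatives). The 3 Lkb1-deleted libraries had no common direction for Tnf.

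The leukocyte genes Cd53, Mcpt8 and Tpsab1 moved with Tnf, while the defining leukocyte markers given further below did not. The sort removed cells that stained for F4/80, CD31, Ter119 or CD45. The gene nearest to Tnf by Pearson's r over the 12 libraries was Bcas1 (r = 0.972), at 85.4, 0 and 0.184 CPM in Lkb1-deleted, 13 to 39.5 CPM in Sik-targeted and 0.637 to 2.81 CPM in KT libraries. The tetraspanin gene Cd53 was at 144, 0.72 and 0.735 CPM in Lkb1-deleted, 12.5 to 144 CPM in Sik-targeted and 3.4 to 7.3 CPM in KT libraries. The protease genes Mcpt8 (basophils) and Tpsab1 (mast cells), looked at after the values were seen, had the same pattern: Mcpt8 was at 214, 0.412 and 0.367 CPM in Lkb1-deleted, 37.3 to 113 CPM in Sik-targeted and 0.223 to 2.33 CPM in KT libraries, and Tpsab1 at 30.5, 0.206 and 0.551 CPM in Lkb1-deleted, 5.95 to 37.1 CPM in Sik-targeted and 0.212 to 0.803 CPM in KT libraries. Lkb1-deleted replicate 1 and the 5 Sik-targeted libraries are thus the libraries with Tnf, Bcas1, Cd53, Mcpt8 and Tpsab1.

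The defining markers of those cell types did not share the pattern. Ptprc, which encodes CD45, was at 0 to 0.103 CPM in Lkb1-deleted, 0 to 0.724 CPM in Sik-targeted and 1.06 to 7.89 CPM in KT libraries, and the 4 pan-leukocyte markers other than Cd53 summed to 0.972 to 2.67 CPM in Lkb1-deleted, 0 to 1.14 CPM in Sik-targeted and 11.8 to 31 CPM in KT libraries. The 10 macrophage markers other than Lyz2, which alveolar type II cells also express, summed to 13 to 14.5 CPM in Lkb1-deleted, 12.2 to 23.6 CPM in Sik-targeted and 81.5 to 1080 CPM in KT libraries. The mast cell and basophil list of 12 genes summed to 29.6 to 252 CPM in Lkb1-deleted, 59.9 to 134 CPM in Sik-targeted and 25 to 147 CPM in KT libraries. In that list Hdc went the other way from Mcpt8 and Tpsab1 with Sik targeting. It was at 4.01, 26.4 and 22.4 CPM in Lkb1-deleted, 1.58 to 11 CPM in Sik-targeted and 14.8 to 145 CPM in KT libraries. Without Mcpt8, Tpsab1 and Hdc the list summed to 3.16 to 13.7 CPM in Lkb1-deleted, 1.91 to 5.67 CPM in Sik-targeted and 1.42 to 9.23 CPM in KT libraries. Ms4a2 and Fcer1a, which encode chains of the IgE receptor that define these cells, were at 0 in all Lkb1-deleted and Sik-targeted libraries, and Cpa3 was at 0 in all of them but Lkb1-deleted replicate 2 at 0.103 CPM.

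**Figure D4:**
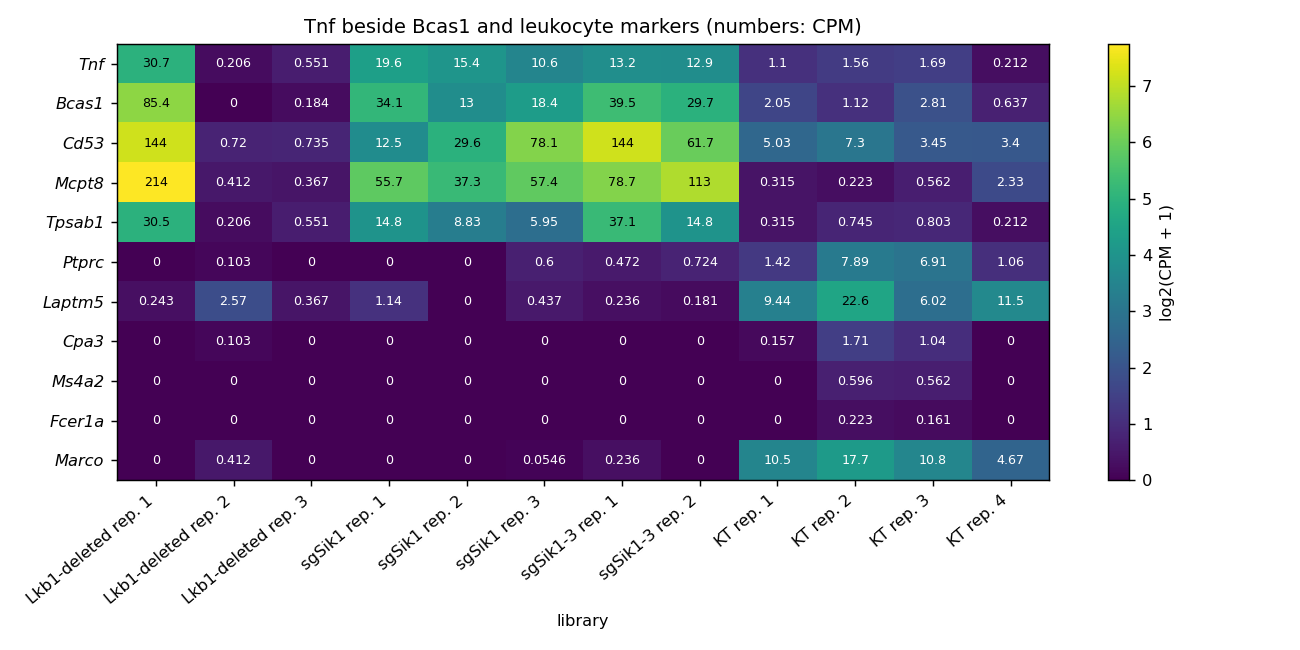
Level of Tnf, Bcas1 and 9 leukocyte marker genes in CPM (numbers) in the Lkb1-deleted, sgSik1, sgSik1-3 and KT libraries from left to right, with colour showing log2(CPM + 1). Tnf, Bcas1, Cd53, Mcpt8 and Tpsab1 are high in Lkb1-deleted replicate 1 and in all 5 Sik-targeted libraries, while Ptprc, Laptm5 and Marco are highest among the KT libraries.

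The Sik-targeted libraries were also compared with KT split by title. In the sgSik1 comparison, where 3.84% of 15303 tested genes passed, 3 of 10 members rose: Tnfaip3 (log2 change 2.22, SE 0.37, adjusted p = 0.00594), Bcl3 (log2 change 2.72, SE 0.61, adjusted p = 0.0246) and Nfkbia (log2 change 1.57, SE 0.37, adjusted p = 0.0301). Tnf had a log2 change of 3.65 (SE 1.19, adjusted p = 0.105). Without sgSik1 replicate 1, Tnfaip3 alone passed, and the log2 changes of Nfkbia and Bcl3 were 1.16 (adjusted p = 0.13) and 1.12 (adjusted p = 0.201). Without KT replicate 2, 3 or 4, Tnfaip3 was again the one that passed, and without KT replicate 1 Nfkbia missed the threshold (log2 change 1.51).

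In sgSik1-3 tumours, where 2.89% of genes passed against KT, 0 of 10 members passed. The 2 libraries lay above all KT libraries for 4 of 10 members and for 14.9% of all genes, and below them for 1 of 10 members and for 20.9% of all genes. Those above were Nfkbia (log2 change 1.44, SE 0.41, adjusted p = 0.0677), Tnfaip3 (1.39, SE 0.41, adjusted p = 0.0735), Tnf (3.43, SE 1.26, adjusted p = 0.161) and Bcl3 (1.32, SE 0.66, adjusted p = 0.266), and the one below was Nfkb1 (-0.19, SE 0.37, adjusted p = 0.8). Nfkbia passed in 5, Tnfaip3 in 6, Tnf in 5 and Bcl3 in 1 of 20 alternative settings. The direct comparison of sgSik1-3 with sgSik1 showed no call among the members and 0% of all genes called (528 at an unadjusted p under 0.05, and 6 genes called by DESeq2). Its log2 change was -0.83 for Tnfaip3 (95% interval -1.79 to 0.13), for which both sgSik1-3 libraries were below all sgSik1 libraries (as for 8.55% of all genes), and -1.40 for Bcl3 (95% interval -2.99 to 0.18), where it was 0.20 without sgSik1 replicate 1.

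Lkb1 deletion and Sik targeting were also compared directly, with 0.221% of genes called. No member passed in edgeR's test, in which 1723 genes had an unadjusted p under 0.05; DESeq2 called no member either. For Nfkbia the log2 change of Lkb1-deleted against Sik-targeted libraries was 0.07 (95% interval -0.66 to 0.79) and for Tnfaip3 -0.21 (95% interval -1.005 to 0.59), and the groups overlapped for both genes. Nfkbie differed by 1.30 (95% interval 0.12 to 2.48, adjusted p = 0.354) and Bcl3 by -1.59 (95% interval -3.01 to -0.18, adjusted p = 0.343). For Tnf the difference was -0.44 (95% interval -2.54 to 1.67, adjusted p = 0.897), and without Lkb1-deleted replicate 1 it was -5.31 (adjusted p = 0.00156, the lowest of the alternatives).

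Of the other genes of the pathway, 84 of 85 listed were in the table and 75 were tested. In the Lkb1-deleted comparison, where 1.16% of all genes passed, 1 of the 75 did, Il6, a cytokine gene that rose to 5.35, 33.7 and 11.9 CPM in Lkb1-deleted libraries, against 0.472 to 1.56 CPM in KT libraries (log2 change 3.74, SE 0.72, adjusted p = 0.029). Its call held in 6 of 12 fits without 1 library (log2 change 2.78 to 4.18) and was lost without any 1 KT library, Lkb1-deleted replicate 2 or sgSik1-3 replicate 2, and without KT replicates 2 and 3 together its adjusted p was 0.335. The endothelial marker sum was 1.34, 214 and 83.4 CPM and the fibroblast and pericyte sum 1.7, 401 and 78.8 CPM in the same Lkb1-deleted libraries, in the order of Il6, and their part in its level was not tested. Receptors (10 tested), adaptors and ubiquitin ligases (16), kinases of the IKK branch (11), other negative regulators (11) and the other subunits and IkB genes (5) had no call. The last list had a median log2 change of 1.18, with Rel at 1.68 (adjusted p = 0.0872, every Lkb1-deleted library above KT) and Nfkbiz at 1.77 (adjusted p = 0.174). Every Lkb1-deleted library was above every KT library (as for 6.38% of all genes) for further genes that did not pass. They include Ptgs2 (log2 change 1.45, edgeR adjusted p = 0.0746) and Ier3 (1.82, adjusted p = 0.0927). Tnfrsf12a (1.47, adjusted p = 0.133) and Zc3h12a (1.35, adjusted p = 0.274) also belong here. Every one was below KT (as for 8.3% of all genes) for Birc2 (-1.10, adjusted p = 0.339) and Tlr2 (-2.80, adjusted p = 0.335).

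With Sik targeting, where the background share is 12.4%, calls went both ways. Of 10 receptors, 3 rose and 1 fell. Tnfrsf12a, the receptor of TWEAK, rose by 1.78 on the log2 scale (adjusted p = 0.0136), to 34.4 ± 20.3 CPM in Sik-targeted libraries (SD, n = 5), against 9.95 ± 3.52 CPM in KT libraries (SD, n = 4). Ltbr, the lymphotoxin receptor, rose by 1.51 (adjusted p = 0.0392) and the TNF receptor gene Tnfrsf1b by 1.37 (adjusted p = 0.0317). The Toll-like receptor gene Tlr2 had 2 counts in all Sik-targeted libraries together and 68 in KT, a ratio of 0.0281 (95% interval 0.00334 to 0.106, counting error only; adjusted p = 0.0301).

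Of 16 adaptors and ubiquitin ligases, 1 rose, Traf3 (log2 change 1.23, adjusted p = 0.0288). It encodes an adaptor through which the kinase NIK of the non-canonical branch is marked for destruction. In the same list Traf1 (log2 change -1.22, adjusted p = 0.0401) and Birc2 (log2 change -1.36, adjusted p = 0.0443) fell. Of 11 other negative regulators, 1 rose: Zc3h12a, which encodes a nuclease that degrades cytokine messages, was at 10.3 ± 8.38 CPM in Sik-targeted (SD, n = 5) and 2.55 ± 0.474 CPM in KT libraries (SD, n = 4; log2 change 1.99, adjusted p = 0.0198). The 11 IKK-branch kinases had no call (median log2 change -0.147), nor had the 5 other subunits and IkB genes (median 1.01), of which Rel changed by 1.01 (adjusted p = 0.104) and Rela by 0.94 (adjusted p = 0.14).

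Of 22 tested targets outside the members, 2 rose and 3 fell with Sik targeting. Ier3, an immediate-early survival gene, was at 391, 94.8 and 130 CPM in sgSik1 and 173 and 154 CPM in sgSik1-3 libraries, and at 28.2, 31.6, 28.8 and 41.4 CPM in KT libraries (log2 change 2.54, SE 0.46, adjusted p = 0.00459). Lcn2, which encodes the iron-binding protein lipocalin, fell to 80.6 to 210 CPM in Sik-targeted libraries, against 396 to 1210 CPM in KT libraries (log2 change -2.45, SE 0.42, adjusted p = 0.00351). Plau, a protease gene named after its values were seen, rose by 1.40 on the log2 scale (adjusted p = 0.0481). The macrophage growth factor gene Csf1 fell (log2 change -3.19, adjusted p = 0.0229), and Il1b had 3 counts in all Sik-targeted libraries and 67 in KT, a ratio of 0.0428 (95% interval 0.00862 to 0.131, counting error only; adjusted p = 0.0165). The macrophage marker sums were also highest in KT libraries, as given above, and their part in the levels of Tlr2, Il1b and Csf1 was not tested. Of the 13 pathway genes called with Sik targeting, Ier3 and Lcn2 passed in 12 of 12 fits without 1 library. The other calls held in 4 (Birc2 and Plau) to 11 (Il1b) of 12 such fits, and that of Tlr2 in 6 of the 9 in which it was tested. Without KT replicates 2 and 3 together the only one that passed was Lcn2 (log2 change -2.93, adjusted p = 0.0135). Split by title, Ier3 rose and Lcn2 fell in both sgSik1 (log2 changes 2.68 and -2.14, adjusted p = 0.0104 and 0.0244) and sgSik1-3 tumours (log2 changes 2.35 and -3.02, adjusted p = 0.0302 and 0.015) against KT. In sgSik1 tumours Zc3h12a (log2 change 2.4, adjusted p = 0.0153) and Tnfrsf12a (log2 change 1.86, adjusted p = 0.0345) also rose, and in sgSik1-3 tumours Tnfrsf11a, the receptor of RANKL, fell to 1.31 ± 0.825 CPM (SD, n = 2), against 10.6 ± 2.03 CPM in KT libraries (SD, n = 4; log2 change -3.02, adjusted p = 0.0171). Without sgSik1 replicate 1 the sgSik1 log2 changes were 1.79 for Ier3 (adjusted p = 0.053), -2.41 for Lcn2 (adjusted p = 0.053), 1.61 for Zc3h12a (adjusted p = 0.0892) and 1.07 for Tnfrsf12a (adjusted p = 0.19), so all 4 calls ended. Of the 12 fits without 1 library, Ier3 passed in 11, Lcn2 and Zc3h12a in 9 and Tnfrsf12a in 8 for sgSik1, and Lcn2 passed in 10, Tnfrsf11a in 9 and Ier3 in 6 for sgSik1-3. Without KT replicates 2 and 3 none of these title-split calls held, with adjusted p of 0.217 for Ier3, 0.0747 for Lcn2, 0.217 for Zc3h12a and 0.34 for Tnfrsf12a in sgSik1 tumours, and of 0.229 for Ier3, 0.052 for Lcn2 and 0.136 for Tnfrsf11a in sgSik1-3 tumours.

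The members did not vary as 1 group across libraries. Nfkbia and Tnfaip3 had the highest correlation (Pearson's r of log2 CPM = 0.88 over 12 libraries, a description of points that include the group differences). The subunit genes were close to each other, with r = 0.85 for Nfkb1 and Nfkb2, 0.85 for Nfkb2 and Relb and 0.76 for Nfkb1 and Relb, while Nfkb1 and Nfkbia had r = 0.40. Birc3 ran opposite to Bcl3 (r = -0.82) and along with Nfkbie (r = 0.69), and Icam1 had no r above 0.31 with any other member and -0.61 with Tnf. All of these use the same libraries, among them sgSik1 replicate 1, the highest of the 12 for Nfkb1, Nfkb2, Relb, Bcl3 and Tnfaip3 and the lowest for Birc3 and Nfkbie.

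**Figure D5:**
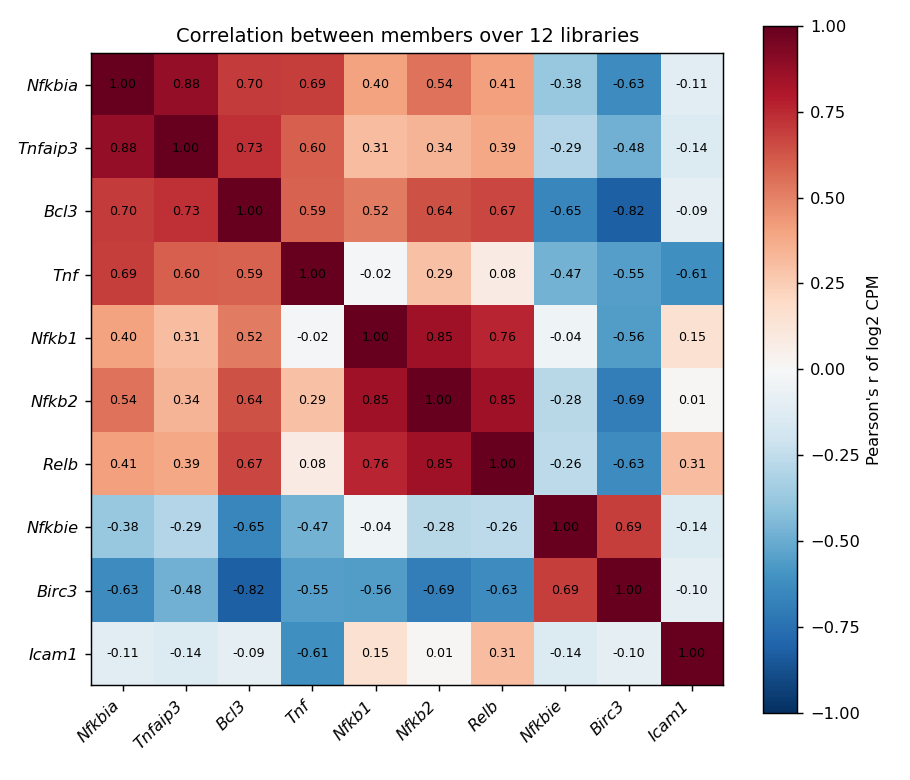
Pearson's r of log2 CPM between each pair of the 10 members over 12 libraries, red for positive and blue for negative values. Nfkbia and Tnfaip3 (0.88) form one pair and Nfkb1, Nfkb2 and Relb (0.76 to 0.85) another group, and Birc3 is negative with every member except Nfkbie.

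The 5 genes with the pattern most like that of Nfkbia were Bcr (r = 0.975), Dusp5 (r = 0.967), Ephb3 (r = 0.965), Dusp6 (r = 0.96) and Dusp1 (r = 0.957), over 12 libraries. Dusp1, Dusp5 and Dusp6 encode phosphatases that switch off MAP kinases, and Dusp1 is also in the dissociation response list. Dusp6 was at 172 to 388 CPM in Lkb1-deleted, 204 to 611 CPM in Sik-targeted and 34.7 to 90 CPM in KT libraries, and Dusp5 at 6.48 to 20.9 CPM in Lkb1-deleted, 6.38 to 35 CPM in Sik-targeted and 0.787 to 2.76 CPM in KT libraries. For the other members the nearest genes were Pde12 for Tnfaip3 (r = 0.939), Notch1 for Nfkb1 (r = 0.944), Ampd2 for Nfkb2 (r = 0.953), Psen2 for Relb (r = 0.931), Ehd1 for Bcl3 (r = 0.96), Ddx42 for Birc3 (r = 0.963), Jdp2 for Icam1 (r = 0.908) and Tmem67 for Nfkbie (r = 0.907). Members were left out of this ranking, so none could be the nearest gene of another. The nearest genes of Nfkbia by Spearman's rho shared 0 of these 5.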

How the data were processed

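Messenger RNA was sequenced from sorted lung cancer cells in 12 libraries. Per the labels' protocols, 30 ng of RNA was amplified to cDNA and sequenced as read pairs of 100 bases. Per the submitters' processing notes, STAR 2.4.2a, HTSeq and mm10 were used. No source used here gives the annotation or strand setting. The deposited values are raw counts per gene symbol, made by the authors, with no molecule tags. Intervals of log2 changes include the spread between libraries, and those of the count ratios of Tlr2 and Il1b cover counting error only. No pair of libraries within a group was a duplicate. Gene coordinates and exon lengths come from GENCODE vM21 (GRCm38).

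Tests on the counts used R 4.3.3 and edgeR 4.0.16, with TMM scaling, the filterByExpr filter and robust quasi-likelihood F tests (2-sided), adjusted by Benjamini-Hochberg over all tested genes at 0.05. One fit in 3 genotype groups (13575 genes, common dispersion 0.262) gave the Lkb1 and Sik comparisons, and one in 4 title groups (15303 genes, 0.287) the rest. The SE is the absolute log2 change over the square root of F. The code was tested on simulated data.

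The members and lists were chosen with earlier results of these data known, and the mast cell and basophil list after its values were seen. Other pathway genes were named as the 4 smallest p-values past the threshold in each list, plus up to 2 that did not pass. Nearest genes were ranked by Pearson's r of log2 CPM (prior count 2) among tested genes outside the members. Alternatives were DESeq2 1.42.0 (or its size factors), limma-voom (limma 3.58.1), no filter, the replicate number as a block, other sample sets, and leaving out libraries.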

Additional observations from a re-analysis of the deposited data

Results flagged for a closer look

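Among the 20 gene and group sets examined by Dixon's Q on CPM for a library far from the rest (10 members in the 5 Sik-targeted and the 4 KT libraries), 6 had one. The nominal rate of about 1 in 20 assumes normally distributed values and separate sets. These sets share libraries, so the rate is no measure for the count. Of the 6, 4 were in sgSik1 replicate 1, which was the highest Sik-targeted library for Nfkb1 (42.3 CPM), Nfkb2 (31.3 CPM), Relb (15.1 CPM) and Bcl3 (207 CPM). That library had the smallest effective size, 3518450, and its 4 most abundant transcripts took 74.2% of its counts; their part in these levels was not tested. In KT libraries, replicate 1 stood apart for Bcl3 (22.2 CPM) and replicate 4 for Nfkb1 (31.0 CPM).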

How the results depend on the processing

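Without KT replicates 2 and 3 together, 0 members passed for Lkb1 deletion, Sik targeting and sgSik1 against KT, where 2, 4 and 3 passed with all libraries, and 3, 98 and 1 of all genes passed against 158, 1679 and 588. Leaving out 1 library at a time, the number of members called ran from 0 to 2 for Lkb1 deletion, 2 to 5 for Sik targeting, 1 to 4 for sgSik1, 0 to 3 for sgSik1-3 and 0 to 1 for Lkb1 deletion against Sik targeting, and was 0 for sgSik1-3 against sgSik1; over all genes the ranges were 13 to 242, 577 to 2655, 134 to 1269, 52 to 1127, 5 to 710 and 0 to 4. For Lkb1 deletion, 1 member passed with limma-voom and 1 with the fit in 4 title groups. For sgSik1-3 against KT, 3 members passed with DESeq2, 3 without the filter and 4 when only the 2 groups were fitted. For Lkb1 deletion against Sik targeting, 1 passed without the filter (Bcl3). Among the other pathway genes, leaving out 1 library gave 1 to 10 higher and 1 to 8 lower calls with Sik targeting, against 7 and 6 with all libraries, and 0 to 6 higher calls with Lkb1 deletion, against 1. The cause of these shifts was not tested.

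Deviations from the group mean of libraries with the same replicate number had r from -0.34 to 0.25 over 15 pairs. In groups this small the deviations within a group depend on each other. These values therefore cannot show whether the numbers pair the libraries. With the replicate block, 0 members were called for Lkb1 deletion, 2 for Sik targeting and 1 for sgSik1, and all genes called numbered 49, 1050 and 254 (126 for sgSik1-3 and 10 for Lkb1 deletion against Sik targeting). DESeq2 called 553, 2526, 1445, 1296 and 345 of all genes in Lkb1 deletion, Sik targeting, sgSik1 and sgSik1-3 against KT and Lkb1 deletion against Sik targeting, and no filter gave 846, 3654, 1783, 1440 and 698. DESeq2 gave no adjusted p for Tnf in the genotype fit. Fitting only the 2 groups gave 1029 for sgSik1, 1941 for sgSik1-3 and 0 for Lkb1 deletion against Sik targeting.

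Over the fits that leave out 1 library, the log2 change of a member took both signs in 26 of 60 pairs of a member and a comparison, 8 of them in sgSik1-3 against sgSik1. Among the values given above, the ranges of those that did so were Nfkbie (-0.645 to 0.216) and Tnf (-1.75 to 3.7) with Lkb1 deletion, Tnf (-5.31 to 0.143), Nfkbia (-0.389 to 0.262) and Tnfaip3 (-0.477 to 0.125) in Lkb1 deletion against Sik targeting, Bcl3 in sgSik1-3 against sgSik1 (-1.88 to 0.199) and, with Sik targeting, Nfkb1 (-0.195 to 0.0756), Nfkb2 (-0.243 to 0.539), Relb (-0.34 to 0.745) and Icam1 (-0.147 to 0.0275). Without KT replicates 2 and 3, Nfkbie with Lkb1 deletion was 0.703. Nfkb1 with Sik targeting, at 0.0092 with all libraries, was -0.00156 with DESeq2 size factors, -0.00628 with DESeq2, -0.0353 with limma-voom, -0.00818 without the filter, -0.0187 with only the 2 groups and -0.073 without KT replicates 2 and 3. None of the 4 members called for Sik targeting changed sign in any alternative. The list of genes nearest to Nfkbia shared 0 of 5 with Spearman's rho. The depth limits Tnf most: 4 of its 12 libraries held under 10 counts.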
